A study of Mus musculus with 12 samples.

Results

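The genes described here were high in wild type (WT) embryoid bodies at day 8 and low both before and after. A gene was taken when the lower of its 2 WT day 8 values was at least 5 FPKM (fragments per kilobase of transcript, scaled to library size) and at least 3 times the highest of the 4 WT values of days 0 and 16. These thresholds were met by 43 of 54537 genes, of which 10 were left out by name: the globins Hba-a1, Hba-x, Hbb-bh1 and Hbb-y, the blood factors Gata1, Klf1, Nfe2 and Tal1, the collagen Col23a1, and Hoxb6. The remaining 33 genes are the members. The samples were mouse embryonic stem (ES) cells and their embryoid bodies, of 1 clone whose genotype label reads WT+1343KO-a14, the 1343KO line below, and of WT. Both lines were sampled as ES cells in serum with leukaemia inhibitory factor (day 0), and on days 8 and 16 as floating aggregates without that factor. Each of the 6 groups had 2 libraries of poly(A) RNA, 12 in all, and nothing states that the 2 were separate cultures, so the p-values below measure the spread between libraries, which may be technical. The labels do not name the gene behind this code, nor say what its leading WT+ stands for.

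Embryoid bodies are aggregates in which ES cells leave pluripotency and form early derivatives of all germ layers, among them yolk sac endoderm, mesoderm, first red cells and beating heart muscle. Many genes of these steps are used only for a time, since cell types such as primitive red cells come and go and because progenitors switch genes off as they mature. Signals of the BMP and Nodal families pattern the early mesoderm, and their antagonists and co-receptors are often expressed briefly. The 33 members were grouped by textbook role after their values were seen, which does not show that they belong to these systems. By role there were 6 ligands, receptors and antagonists, 6 nuclear regulators, 4 proteins of intracellular signalling, 7 membrane transporters and surface proteins, 2 matrix proteins or secreted proteases, 2 muscle proteins and 2 red cell genes, while 4 were given no role here.

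All 6 WT values entered the choice, so the WT levels are a description with no test. Mean WT day 8 levels ran from 5.48 to 506 FPKM with a median of 22.8, and only Emb and Car4 were above 100 FPKM. The ratio of the lower WT day 8 value to the highest of days 0 and 16 had a median of 3.87. It was 5 or more in 12 members and 10 or more in 3, among them Cfc1 (23.4) and Ms4a4d (17.2). The highest of the 4 other WT values came from day 16 in 27 members and from day 0 in 6 (Emb, Prtg, Cfc1, Slc6a15, Alas2 and Gm49376). In 18 members both WT day 0 values were under 1 FPKM. In 27 members the WT mean of day 16 was above that of day 0.

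Just inside the 3-fold threshold stood Slc6a15 (3.03), Prdm6 (3.04) and Car4 (3.07). Just outside it stood Ripor3 (2.97), Bmp2 (2.96), a BMP ligand, and Apoc1 (2.87), an apolipoprotein gene. Just inside the floor of 5 FPKM stood Dgkk, Angpt4 and Cited4, with lower WT day 8 values of 5.20, 5.36 and 6.70 FPKM. Just outside it stood Nr1h5 (4.88 FPKM), the adenosine receptor gene Adora2b (4.56) and Epb42 (4.24), a red cell membrane gene.

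**Figure D1:**
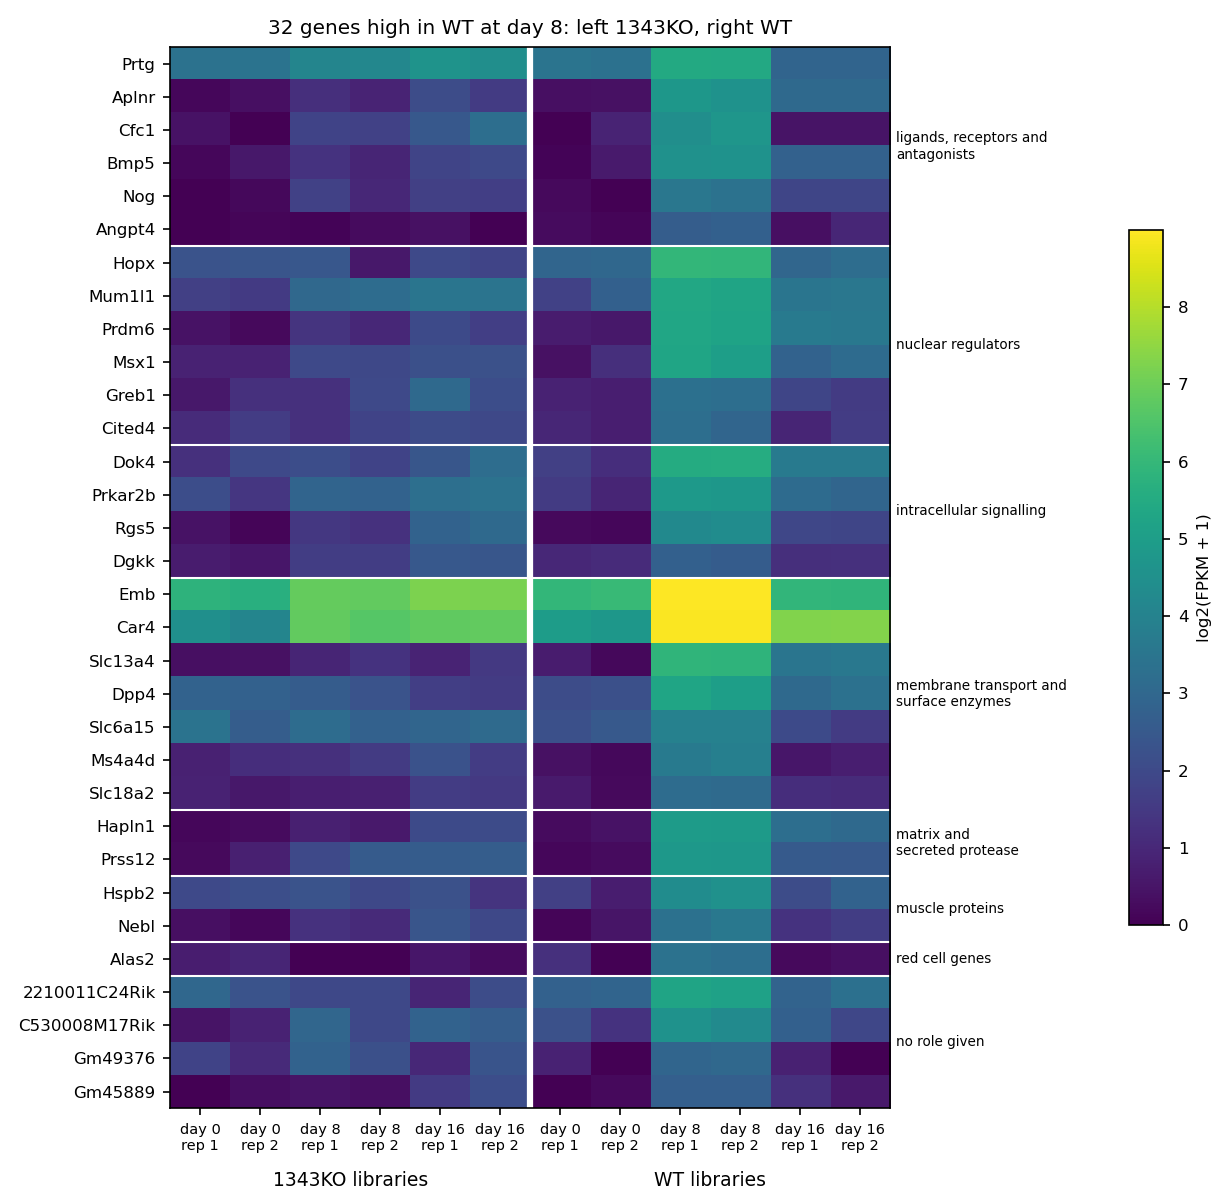
Levels of 32 members as log2(FPKM + 1) in each library, 1343KO libraries on the left and WT libraries on the right, with members grouped by role. The WT day 8 columns are the brightest in every row by the choice of members, and most 1343KO rows brighten by smaller steps over days 8 and 16.

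The 1343KO libraries took no part in the choice. Depth recovered from the smallest values was about 4885000 to 8078000 fragments per library, so 1 fragment gives only a fraction of an FPKM for most transcripts. Snhg3, the host gene of the small nucleolar RNA named in the series title, was listed at 0 to 1.57 FPKM in the 1343KO libraries and at 8.31 to 61.1 FPKM in the WT libraries. Eif2s3y, a gene of the Y chromosome, was at 0.198 to 1.28 FPKM in the 1343KO libraries and at 13.85 to 23.98 FPKM in the WT libraries. The part of this difference between the lines in the values of the X-linked members Dgkk, Mum1l1 and Alas2 was not tested. All samples carry the label of ES cells. Pou5f1, the pluripotency factor Oct4, was at 419 and 397 FPKM in 1343KO embryoid bodies of day 16, after 851 and 801 on day 0. In WT it was at 23.6 and 18.6 on day 16, after 762 and 761 on day 0, so this defining ES cell marker had nearly gone from WT and not from 1343KO samples. Its part in the results below was not tested. Genes of chromosome 8 with a mean of at least 20 FPKM had a median log2 difference of -0.42 on day 0 between the 1343KO line and WT, against 0.00 for the other chromosomes, and Dok4 and 2210011C24Rik lie on it. On day 8 the median was -0.16 for chromosome 8 and 0.25 for the other chromosomes. On day 16 it was 0.06 and 0.40 in the same order, so off chromosome 8 the median lay above WT at both later days. The part of these shifts in the values of Dok4 and 2210011C24Rik was not tested. Nor was their part in the comparisons of members with WT at days 8 and 16, which use the listed values.

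Within the 1343KO line most members were higher at day 16 than at day 0. Against day 0, 23 of 33 members were higher at day 16, 2 were lower and 8 did not pass (limma, Benjamini-Hochberg adjusted p under 0.05 over 16289 tested genes). This is 69.7% of the members, where 18.2% of all tested genes were higher and 8.60% lower. The median log2 change of the members was 1.45, on the log2(FPKM + 1) scale used for all changes here, against 0.11 for all tested genes. The members started low in this line as in WT. Both 1343KO day 0 values were under 1 FPKM in 18 members (54.5%) against 17.02% of all tested genes, so the 2 sets differ in how far they could fall. Of the 25 calls 19 held under every alternative in which the gene was tested, and the other 6 are named below with the library they rest on.

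At day 8 the 1343KO line showed the same direction with fewer calls. Against day 0, 15 members were higher (45.5%, where 15.0% of all tested genes were higher), 0 were lower (8.51% of all tested genes) and 18 did not pass by limma. At an unadjusted p under 0.05 there were 18 higher and 1 lower, Alas2. The share of all tested genes at this unadjusted threshold was not counted, so these 2 counts have no background. The count of 15 was 9 without 1343KO day 0 replicate 2 and 8 without 1343KO day 8 replicate 1. Car4, Dgkk, Emb, Mum1l1, Nog, Prss12, Prtg and Rgs5 kept their calls under every alternative. The day 8 call of Cfc1 ended without 1343KO day 0 replicate 2 (adjusted p = 0.0696) or day 8 replicate 1 (0.0509). That of C530008M17Rik ended without day 0 replicate 1 (0.0703) or day 8 replicate 1 (0.0828). That of Msx1 ended without day 0 replicate 2 (0.0538) or day 8 replicate 1 (0.0537) or 2 (0.0525), and that of Prkar2b without the same libraries (0.100, 0.0737 and 0.0607). Prdm6 lost its call without day 0 replicate 2 (0.0649) or day 8 replicate 1 (0.0704) and with the 6 1343KO libraries alone (0.0722). Nebl lost it without day 0 replicate 2 (0.107) or day 8 replicate 1 (0.103) or 2 (0.0503) and with those 6 libraries alone (0.0581). Aplnr lost it without day 0 replicate 1 (0.113) or 2 (0.0578), without day 8 replicate 1 (0.131), with the 6 libraries alone (0.106) and with no filter (0.0506).

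From day 8 to day 16 the members fell in WT by the choice of members. In the 1343KO line 3 members were higher at day 16 than at day 8 (9.09%, where 0.602% of all tested genes were higher), 0 were lower (0.203% of all tested genes) and 30 did not pass by limma. At an unadjusted p under 0.05 there were 14 higher and 1 lower, Dpp4, again with no share of all tested genes to set beside them. The median log2 change was 0.41 for the members and 0.03 for all tested genes. The 3 calls were Rgs5 (1.56 ± 0.18 (SE), adjusted p = 0.00726), Hapln1 (1.31 ± 0.17, adjusted p = 0.0104) and Emb (0.36 ± 0.07, adjusted p = 0.0435), and each rested on single libraries. The call of Rgs5 ended without 1343KO day 8 replicate 2 (0.0673) or day 16 replicate 2 (0.0700), with a pseudocount of 0.1 (0.0796) and with the 6 1343KO libraries alone (0.106). That of Hapln1 ended without day 8 replicate 2 (0.0925), day 16 replicate 1 (0.0773) or 2 (0.0816), and with those 6 libraries alone (0.144). That of Emb ended without 1343KO day 8 replicate 1 (0.125) or 2 (0.249) or day 16 replicate 1 (0.217) or 2 (0.134). Leaving out a WT library ended it too, at day 0 (0.0611 and 0.0619 for replicates 1 and 2), at day 8 (0.0827 and 0.0812) and at day 16 (0.0694 and 0.0693). The call of Emb ended as well with a pseudocount of 0.1 (0.0521), median-of-ratios scaling (0.0811), a replicate block (0.0561) and the 6 1343KO libraries alone (0.184).

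**Figure D2:**
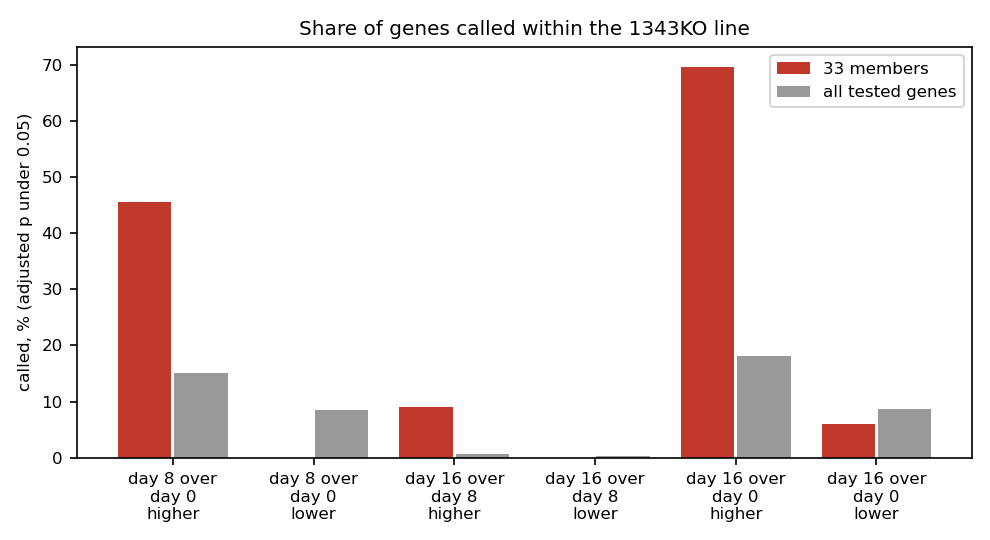
Percent of genes called (limma, adjusted p under 0.05) in the 3 comparisons within the 1343KO line, for the 33 members (red) and for all 16289 tested genes (grey), by direction. For day 16 over day 0, 69.7% of the members and 18.2% of all tested genes were higher.

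**Figure D3:**
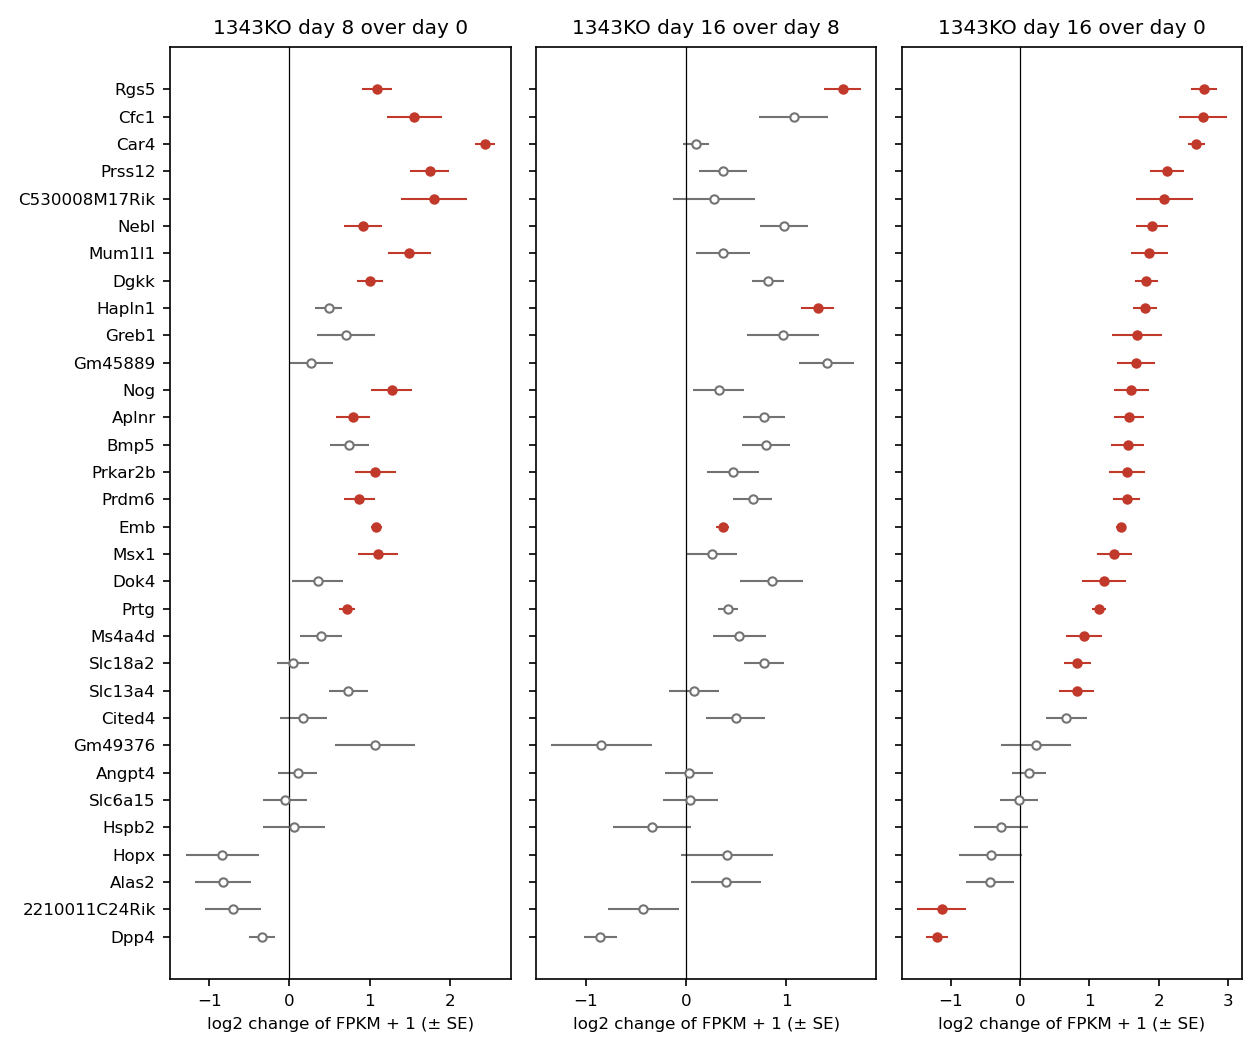
Log2 change of FPKM + 1 with its standard error for 32 members in the 3 comparisons within the 1343KO line, ordered by the change of day 16 over day 0, with called members in filled red. In the panel of day 16 over day 0, 23 members are called to the right of 0 and 2 to the left.

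Among signalling molecules, 5 of 6 members were higher at day 16 than at day 0 in the 1343KO line. Nog (ENSMUSG00000048616, chromosome 11, 89300638 to 89302332 of GRCm38) encodes noggin, a secreted antagonist that binds BMP ligands. In the 1343KO libraries it was listed at 0 and 0.137 FPKM on day 0, 2.36 and 0.981 on day 8, and 2.29 and 2.18 on day 16. The WT libraries had 0.181 and 0 on day 0, 10.8 and 9.53 on day 8, and 2.66 and 2.66 on day 16. The 1343KO values at day 16 lay just under those of WT at that day and far under the WT day 8 values. Within the line Nog was already higher at day 8 (1.28 ± 0.25 (SE) as a log2 change, adjusted p = 0.00623) and also higher at day 16 than at day 0 (1.60 ± 0.25, adjusted p = 0.0017).

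Bmp5 (ENSMUSG00000032179), a BMP ligand, started at 0.116 and 0.490 FPKM in 1343KO ES cells, followed by 1.49 and 0.890 on day 8, and 2.57 and 3.0 on day 16. In WT it had 0.0716 and 0.551 on day 0, 22.4 and 23.1 on day 8, and 5.91 and 5.97 on day 16. Bmp5 thus rose in the 1343KO line by day 16 (1.55 ± 0.24, adjusted p = 0.00153), with both values under every WT value of days 8 and 16. At day 8 it did not pass (adjusted p = 0.0501).

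Cfc1 (ENSMUSG00000026124, chromosome 1, 34535648 to 34544313) encodes cryptic, a membrane co-receptor for Nodal. In 1343KO ES cells it was listed at 0.366 and 0 FPKM, followed by 2.53 and 2.37 on day 8, and 4.52 and 8.54 on day 16. In the WT libraries it was listed at 0 and 0.884 on day 0, 20.7 and 25.3 on day 8, and 0.393 and 0.374 on day 16. The highest day was therefore day 16 in the 1343KO line and day 8 in WT, and at day 16 both 1343KO values were above both WT values. The change from day 0 to day 16 within the line was 2.63 ± 0.34 (SE, adjusted p = 0.000607). Tdgf1, the related co-receptor of pluripotent cells, fell over the same days (-1.41 ± 0.06, adjusted p = 1.65e-06) and so did Nodal itself (-0.72 ± 0.19, adjusted p = 0.02). The call of Tdgf1 held under every alternative. That of Nodal ended without 1343KO day 0 replicate 1 (0.0817) or 2 (0.0726) or day 16 replicate 1 (0.106) or 2 (0.0524). These 2 genes are no members and were added for comparison after the values were seen.

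Aplnr (ENSMUSG00000044338), the receptor for apelin in vessel and heart progenitors, was at 0.120 and 0.282 FPKM in 1343KO ES cells, followed by 1.32 and 0.865 on day 8, and 3.28 and 1.98 on day 16. WT had 0.297 and 0.335 on day 0, 26.0 and 23.2 on day 8, and 7.41 and 7.33 on day 16. The 1343KO rise by day 16 passed (1.58 ± 0.21, adjusted p = 0.000768), and its values stayed under those of WT at days 8 and 16. Prtg, protogenin, a surface protein of the immunoglobulin superfamily found in early neural and mesodermal tissue, was at 9.47 and 9.77, 16.1 and 16.8, and 23.9 and 20.9 FPKM on days 0, 8 and 16 of the 1343KO line. In WT it was at 10.1 and 9.25, 43.6 and 41.6, and 6.55 and 6.44. It rose within the line at day 8 (0.72 ± 0.10, adjusted p = 0.00115) and by day 16 (1.14 ± 0.10, adjusted p = 7.56e-05). At day 16 the 1343KO values of Prtg were the higher ones, while at day 8 they were the lower ones. Angpt4, an angiopoietin that signals to vessels, was listed at 0 to 0.314 FPKM in all 1343KO libraries, against 5.36 and 5.78 in the WT day 8 libraries.

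**Figure D4:**
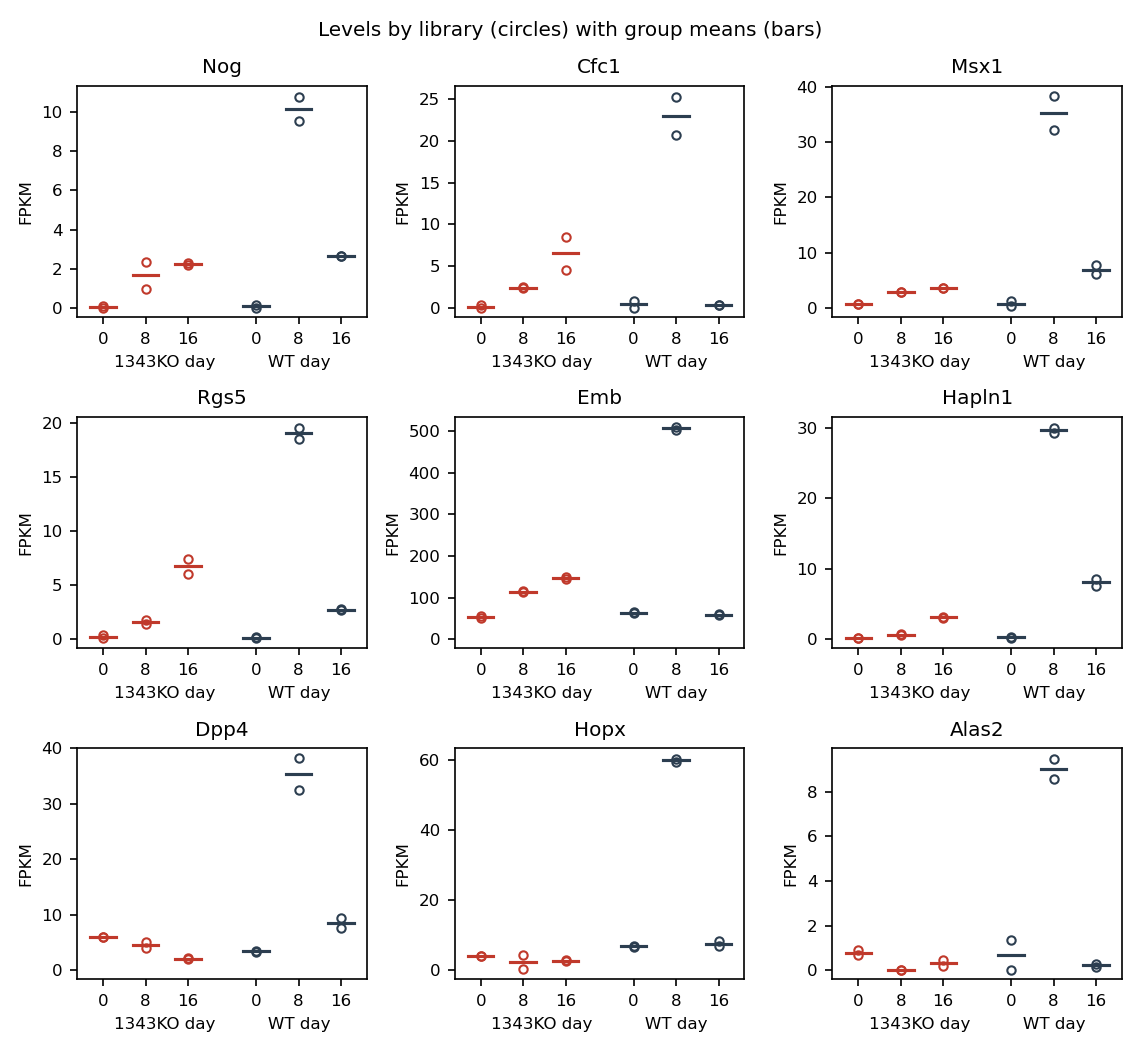
FPKM of 9 members in each library (circles) with group means (bars), 1343KO days on the left (red) and WT days on the right (dark blue). Nog, Cfc1, Msx1, Rgs5, Emb and Hapln1 step up over the 1343KO days, Dpp4 steps down, and Hopx and Alas2 are low at every 1343KO day.

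Of 6 nuclear regulators 4 were higher at day 16 than at day 0 in the 1343KO line. Msx1 (ENSMUSG00000048450, chromosome 5, 37820485 to 37824583), a homeobox repressor that responds to BMP signals, was at 0.832 and 0.817 FPKM on day 0, 2.96 and 2.88 on day 8, and 3.63 and 3.73 on day 16 in the 1343KO libraries. In WT it was at 0.313 and 1.29 on day 0, 38.2 and 32.1 on day 8, and 6.10 and 7.80 on day 16. It was higher at day 16 within the line (1.36 ± 0.25, adjusted p = 0.0039), with a mean that was 10.5% of the WT day 8 mean. Prdm6, a repressor of smooth muscle precursors, was at 0.342 and 0.162, 1.58 and 1.02, and 3.11 and 2.19 FPKM on days 0, 8 and 16 of the 1343KO line, against 0.603 and 0.495, 39.2 and 35.9, and 11.8 and 11.2 in WT. Its change by day 16 was 1.54 ± 0.19 (SE, adjusted p = 0.000519).

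Mum1l1, a gene of the family with a PWWP domain, rose at day 8 (1.49 ± 0.27, adjusted p = 0.0038) and was at 10.2 FPKM in both 1343KO day 16 libraries, just under WT at that day (10.4 and 11.0). Greb1, an oestrogen-responsive co-regulator, was at 0.50 and 1.36 FPKM on day 0, 1.40 and 2.95 on day 8, and 7.39 and 3.35 on day 16 in the 1343KO line, and WT had 8.89 and 8.48 on day 8. Its change by day 16 (1.68 ± 0.36, adjusted p = 0.00826) lost its call without 1343KO day 0 replicate 1 (0.0564) or day 16 replicate 1 (0.0572). The 2 regulators that did not pass were Cited4 and Hopx. Cited4, a co-activator, was at 3.19 and 2.87 FPKM on day 16, against 1.14 and 2.0 on day 0, in the 1343KO line (adjusted p = 0.126).

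Hopx (ENSMUSG00000059325), a homeodomain-only protein of heart and other progenitors that does not bind DNA itself, did not pass in any comparison of the 1343KO line. The 1343KO libraries had 3.93 and 4.19 FPKM on day 0, 4.41 and 0.479 on day 8, and 2.94 and 2.60 on day 16. The WT libraries had 6.56 and 7.04 on day 0, 60.5 and 59.6 on day 8, and 6.77 and 8.24 on day 16. No 1343KO value exceeded the 6.56 FPKM of the lowest WT library (adjusted p = 0.542 for day 16 over day 0). An antisense gene, Hopxos, overlaps it, and the strand setting of the counting is not given in the sources used here.

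All 4 members of intracellular signalling were higher at day 16 than at day 0. Rgs5 (ENSMUSG00000026678, chromosome 1, 169655501 to 169695813), a brake on G protein signalling known from pericytes, the cells that wrap small vessels, had, with Cfc1, the largest changes of the members by day 16 on the log2(FPKM + 1) scale. It was at 0.359 and 0.101 FPKM on day 0, 1.78 and 1.45 on day 8, and 6.03 and 7.44 on day 16 in the 1343KO libraries. In WT it was at 0.166 and 0.128 on day 0, 18.5 and 19.6 on day 8, and 2.78 and 2.66 on day 16. The 1343KO line was below WT at day 8 and above it at day 16, and its change by day 16 was 2.66 ± 0.18 (SE, adjusted p = 1.55e-05). Dgkk, an X-linked diacylglycerol kinase, likewise was below WT at day 8 and above it at day 16, with 0.628 and 0.471, 2.11 and 2.09, and 4.62 and 4.32 FPKM on days 0, 8 and 16 of the 1343KO line and 0.992 and 1.17, 5.76 and 5.20, and 1.31 and 1.40 in WT. Its day 16 mean was 81.6% of the WT day 8 mean, the highest such share of the members, and its change by day 16 was 1.82 ± 0.16 (SE, adjusted p = 7.56e-05).

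Prkar2b, a regulatory subunit of protein kinase A, was at 8.69 and 9.51 FPKM in the 1343KO day 16 libraries after 3.40 and 1.71 on day 0 (1.55 ± 0.26, adjusted p = 0.00244), and WT had 28.0 and 26.2 on day 8. Dok4, a docking protein for receptor tyrosine kinases on chromosome 8, was at 1.37 and 2.96 FPKM on day 0, 3.37 and 2.5 on day 8, and 4.35 and 8.34 on day 16 in the 1343KO line, against 45.003 and 46.9 in WT at day 8. Its change by day 16 was 1.21 ± 0.32 (SE, adjusted p = 0.0204). The call ended without 1343KO day 0 replicate 1 (0.125) or day 16 replicate 2 (0.135), with no filter (0.0517) and with the 6 1343KO libraries alone (0.0581). Dok4 overlaps Polr2c on the opposite strand.

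The 2 most abundant members were surface proteins. Emb (ENSMUSG00000021728, chromosome 13, 117208536 to 117274415) encodes embigin, a glycoprotein that escorts lactate and pyruvate transporters to the membrane. It was at 55.8 and 50.6 FPKM on day 0, 115 and 113 on day 8, and 150 and 144 on day 16 in the 1343KO libraries, and at 61.9 and 65.6, 511 and 502, and 60.0 and 57.8 in the WT libraries of the same days. The 1343KO values were a little under those of WT at day 0 and far under them at day 8, and at day 16 the 1343KO values were above those of WT. Within the line Emb rose at day 8 (1.09 ± 0.07, adjusted p = 7.86e-06) and was higher at day 16 than at day 0 (1.45 ± 0.07, adjusted p = 1.65e-06).

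Car4 (ENSMUSG00000000805, chromosome 11, 84957786 to 84966044), a membrane-anchored carbonic anhydrase, was at 21.3 and 16.0 FPKM on day 0, 113 and 96.9 on day 8, and 111 and 115 on day 16 in the 1343KO libraries. WT had 30.4 and 26.4 on day 0, 495 and 496 on day 8, and 155 and 161 on day 16. It reached its 1343KO level by day 8 (2.44 ± 0.13, adjusted p = 3.52e-06) and was close to it at day 16, with a change of 0.10 ± 0.13 (SE) between the 2 days that did not pass (adjusted p = 0.815). Its 1343KO day 8 mean was 21.2% of the WT day 8 mean.

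Dpp4 (ENSMUSG00000035000, chromosome 2, 62330073 to 62412231), a surface peptidase that trims chemokines and gut hormones, went the other way. In the 1343KO line it was at 6.05 and 5.94 FPKM on day 0, 5.08 and 3.99 on day 8, and 2.16 and 1.93 on day 16, so that each day's values lay under those of the day before. WT had 3.30 and 3.53 on day 0, 38.2 and 32.4 on day 8, and 7.51 and 9.33 on day 16. Dpp4 fell by day 16 within the line (-1.20 ± 0.16, adjusted p = 0.000741). Its change from day 8 to day 16 did not pass (-0.86 ± 0.16, adjusted p = 0.0564).

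The other 3 transport and surface genes that passed at day 16 lost their calls in some alternatives. Slc18a2, the transporter that fills vesicles with monoamines, was at 2.01 and 1.83 FPKM on day 16 and 0.817 and 0.492 on day 0 in the 1343KO line (0.83 ± 0.20, adjusted p = 0.0146), against 8.15 and 7.70 in WT at day 8. Its call ended without 1343KO day 0 replicate 2 (0.0895) or day 16 replicate 1 (0.0695) or 2 (0.0506), and with the 6 1343KO libraries alone (0.0583). Ms4a4d, of a family of membrane-spanning proteins, was at 3.82 and 2.0 FPKM on day 16 and 0.784 and 1.26 on day 0 (0.92 ± 0.26, adjusted p = 0.029), with 11.7 and 13.8 in WT at day 8. The Ms4a4d call ended without day 0 replicate 1 (0.141) or 2 (0.0506), without day 16 replicate 1 (0.177), with a pseudocount of 0.1 (0.0506), no filter (0.0631) and the 6 libraries alone (0.0805).

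Slc13a4, a sodium-dependent sulphate transporter, stayed near the bottom of its range in the 1343KO line. It was at 0.305 and 0.318 FPKM on day 0, 0.909 and 1.5 on day 8, and 0.871 and 1.85 on day 16 in the 1343KO libraries. WT had 0.605 and 0.156 on day 0, 58.9 and 57.1 on day 8, and 10.3 and 11.1 on day 16. The 1343KO day 16 mean was 2.34% of the WT day 8 mean, and its change from day 0 was small (0.82 ± 0.25, adjusted p = 0.0378). That call ended without 1343KO day 0 replicate 1 (0.113) or 2 (0.114), 1343KO day 16 replicate 2 (0.221), either WT day 8 library (0.0589 each) or either of WT day 16 (0.0533 and 0.0534 for replicates 1 and 2). It also ended with no filter (0.0755), median-of-ratios scaling (0.0514) and the 6 1343KO libraries alone (0.111). Slc6a15, a transporter of neutral amino acids, was at 5.26 to 9.88 FPKM in all 6 1343KO libraries with no day apart from the others, and at 14.5 and 14.4 in WT at day 8.

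Both matrix members were higher at day 16. Hapln1 (ENSMUSG00000021613, chromosome 13, 89539796 to 89611652) encodes a link protein that ties proteoglycans to hyaluronan, a matrix component of the heart cushions and cartilage. It was at 0.126 and 0.213 FPKM on day 0, 0.745 and 0.543 on day 8, and 3.02 and 3.14 on day 16 in the 1343KO line, and at 0.186 and 0.360, 30.02 and 29.3, and 8.61 and 7.49 in WT. Most of its 1343KO change fell after day 8, and the change of day 16 over day 0 was 1.80 ± 0.17 (SE, adjusted p = 8.85e-05). Prss12, the secreted protease neurotrypsin, was at 0.177 and 0.748, 2.93 and 4.93, and 5.14 and 5.30 FPKM at the 3 days of the 1343KO line, where WT had 0.110 and 0.212, 27.0 and 26.1, and 4.85 and 4.69. It rose at day 8 (1.75 ± 0.24, adjusted p = 0.00092) and by day 16 (2.12 ± 0.24, adjusted p = 0.00028). At day 16 Prss12 stood at about the same level in both lines.

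Of the 2 muscle members, Nebl, nebulette of the heart muscle Z-disc, was at 0.293 and 0.105 FPKM on day 0, 1.45 and 1.09 on day 8, and 4.15 and 2.87 on day 16 in the 1343KO line (1.90 ± 0.24 for day 16 over day 0, adjusted p = 0.000471). In WT it was at 9.27 and 11.1 on day 8 and at 1.49 and 2.08 on day 16. The 1343KO day 16 values were thus the higher ones at that day. Hspb2, a small heat shock protein of muscle, was at 1.57 to 3.98 FPKM over the 1343KO libraries with no call, and at 19.95 and 22.3 in WT at day 8. Hspb2 overlaps Cryab, its neighbour on the opposite strand, so reads of the pair may not be told apart.

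The red cell gene Alas2 was listed under 1 FPKM in every 1343KO library. Alas2 (ENSMUSG00000025270, chromosome X, 150547375 to 150570638) encodes the red cell form of the first enzyme of haem synthesis. It was listed at 0.662 and 0.903, 0 and 0, and 0.460 and 0.191 FPKM on days 0, 8 and 16 of the 1343KO line, and at 1.36 and 0, 9.48 and 8.55, and 0.163 and 0.295 in WT. It did not pass in any of the 3 comparisons of the 1343KO line, and it overlaps Apex2 on the opposite strand. Gata1, the red cell factor left out by name, was listed at 0 to 0.357 FPKM in the 1343KO libraries and at 6.68 and 5.56 in the WT day 8 libraries. The embryonic globin Hba-x, also left out by name, was at 2.33 and 1.16, 1.18 and 0.774, and 9.51 and 8.03 FPKM on days 0, 8 and 16 of the 1343KO line. In WT it was at 1.02 and 1.97, 257 and 290.1, and 2.96 and 7.51. Hba-x rose by day 16 within the 1343KO line (1.86 ± 0.36 (SE), adjusted p = 0.0048), and its call held under every alternative. Its change from day 8 to day 16 (2.31 ± 0.36, adjusted p = 0.0225) lost its call without 1343KO day 8 replicate 1 (0.0803) or 2 (0.172), day 16 replicate 1 (0.148) or 2 (0.110), with no filter (0.0595) and with the 6 1343KO libraries alone (0.063). The embryonic globin Hbb-y, listed at 0 and 0.552 FPKM on day 0, 0.341 and 0 on day 8, and 2.83 and 1.75 on day 16, against 13.97 and 18.6 in WT at day 8, also rose by day 16 (1.38 ± 0.41, adjusted p = 0.0337). That call ended without 1343KO day 0 replicate 1 (0.171), day 16 replicate 1 (0.162) or 2 (0.0627), with a pseudocount of 0.1 (0.0509) and with no filter (0.0806). Gata1, Klf1, Nfe2, Tal1, Hba-a1 and Hbb-bh1 did not pass in any of the 3 comparisons. In whole embryoid bodies, fewer cells of a type and less RNA per cell cannot be told apart.

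The 4 members with no role given were the protein-coding 2210011C24Rik and C530008M17Rik, the pseudogene Gm49376 and the long noncoding Gm45889. C530008M17Rik was at 0.397 and 0.802 FPKM on day 0, 6.85 and 2.91 on day 8, and 6.12 and 5.34 on day 16 in the 1343KO line, against 23.1 and 18.7 in WT at day 8 (2.08 ± 0.41 for day 16 over day 0, adjusted p = 0.00581). Gm45889 also rose by day 16 (1.67 ± 0.27, adjusted p = 0.00219), to 1.92 and 3.32 FPKM, with 5.6 and 5.57 in WT at day 8. Gm49376 was listed at 0.999 to 6.07 FPKM in the 1343KO libraries with no call, and at 6.65 and 7.24 in WT at day 8. For 2210011C24Rik, on chromosome 8, the 1343KO line had 0.912 and 3.31 FPKM on day 16, against 6.97 and 3.98 on day 0 (-1.13 ± 0.35, adjusted p = 0.0425), and WT had 37.0 and 34.8 on day 8. That call ended without 1343KO day 0 replicate 1 (0.218), 1343KO day 16 replicate 1 (0.238) or 1343KO day 8 replicate 1 (0.0583) or 2 (0.0582). Leaving out either WT day 0 library (0.058 each) or either WT day 8 library (0.0618 each) ended it too, as did a replicate block (0.0528), no filter (0.0961) and the 6 1343KO libraries alone (0.100).

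Set beside the WT peak, the 1343KO line stayed below it at both later days. No 1343KO library reached the lower WT day 8 value of any member, a comparison that rests on the WT values used for the choice and is given without a test. All 33 members had both 1343KO day 8 values under both WT day 8 values, where 32.5% of all tested genes did, and 0 had them above (38.3%). At day 0 both 1343KO values were above both WT values in 6 members (22.8% of all tested genes) and below them in 8 (22.2%). The 1343KO day 8 mean was a median of 12.5% of the WT day 8 mean and the 1343KO day 16 mean a median of 22.7%, with listed zeros taken as 0. At day 16 the share was under 10% in 8 members, among them Slc13a4, Angpt4, Alas2, Hopx, Dpp4, 2210011C24Rik and Prdm6. It was above 50% in 3 (Dgkk, Greb1 and Prtg). The highest of the 3 day means in the 1343KO line was that of day 16 in 26 members (37.6% of all tested genes), that of day 0 in 5 (33.6%) and that of day 8 in 2 (28.8%). Both day 8 libraries of this line were above both of day 0 in 22 members (35.3% of all tested genes), and both of day 16 were above both of day 0 in 24 (38.9%). At least 5 FPKM and 3 times the day 0 level were reached at day 16 by 5 members (1.61% of all tested genes). Both day 16 libraries were below both of day 8 in 1 member, Dpp4 (17.2% of all tested genes). The same 2 thresholds, read on the 1343KO libraries in place of WT, took 2 genes, Ctsh and Gm6134, and 0 of the members.

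**Figure D5:**
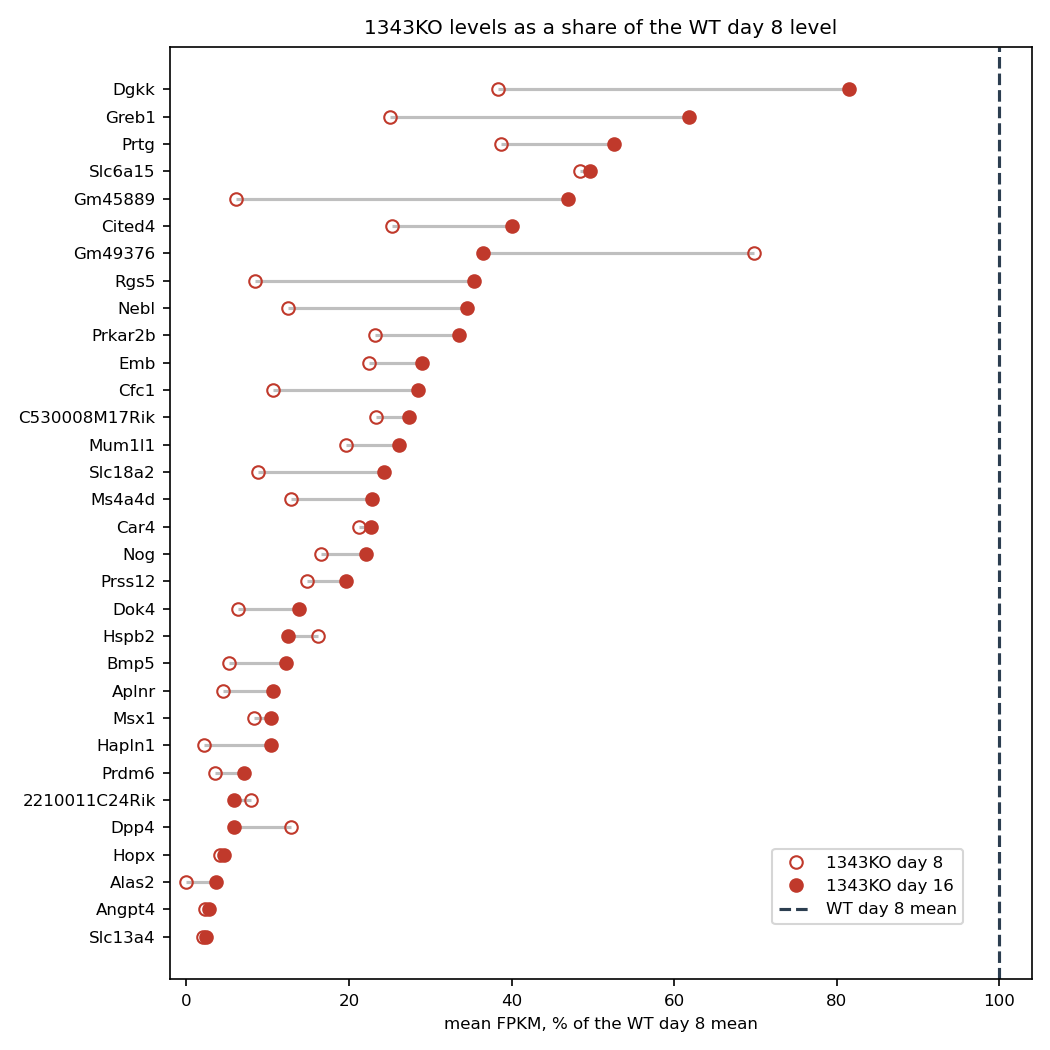
Mean FPKM of 32 members in the 1343KO line at day 8 (open circles) and day 16 (filled circles) as a percentage of its WT day 8 mean (dashed line at 100%). The medians over all 33 members are 12.5% at day 8 and 22.7% at day 16, and no filled circle is above 81.6%.

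At day 16 the members lay on both sides of WT, in shares not far from those of all tested genes. Both 1343KO values were above both WT values in 15 of 33 members (40.6% of all tested genes) and below them in 14 (34.7% of all tested genes). Since the WT day 16 values set a ceiling in the choice, these counts are a description.

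Textbook lists of lineage genes placed few members. Of 16 lists 11 held none, and the other 5 held 1 each, among them Alas2 in haem synthesis and iron, Aplnr in endothelium, Msx1 in lateral and extraembryonic mesoderm, and Prss12 in definitive endoderm and gut. In WT few lineage genes that were up at day 8 were down again at day 16. Of 25 endothelial genes in the table, 11 had at least 5 FPKM on day 8 and 3 times their day 0 level, and 1 of these was also 3 times its day 16 level. Of 24 heart muscle genes these counts were 9 and 0, and of 24 yolk sac endoderm genes 19 and 0. In the list of erythroid regulators and enzymes 9 of 29 genes were up at day 8 and 4 of these (Gata1, Klf1, Nfe2 and Tal1) were down again at day 16, while these counts were 2 and 1 of 25 for red cell membrane and 1 and 1 of 24 for haem synthesis and iron.

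In the 1343KO line the genes of these lists moved unequally between day 0 and day 16. In haem synthesis and iron 1 of 24 tested genes was higher (Blvrb, biliverdin reductase B), 3 were lower (Slc25a38, Alas1 and Fth1) and 20 did not pass. In red cell membrane 6 of 21 were higher, 1 was lower and 14 did not pass. In erythroid regulators and enzymes 9 of 25 were higher, 1 was lower and 15 did not pass, with Optn, Fam210b, Jak2, Tspo2, Samd14, Cat, Stat5a, Bcl11a and Prdx2 higher and E2f2 lower. In endothelium 13 of 25 were higher, among them the vascular receptors Flt1 and Kdr, 1 was lower (Robo4) and 11 did not pass. In heart muscle 14 of 22 were higher, led by the sarcomere genes Actc1 and Tnnt2, 1 was lower (Ttn) and 7 did not pass. In lateral and extraembryonic mesoderm 14 of 21 were higher, led by the factors Hand1 and Hand2, 1 was lower (Tbx3) and 6 did not pass. In definitive endoderm and gut 12 of 18 were higher, led by Cer1, a Nodal and BMP antagonist, 1 was lower (Cdx1) and 5 did not pass. Of 18 trophoblast genes 14 were higher and 0 lower, of 23 yolk sac endoderm genes 9 and 2, of 12 nascent mesoderm genes 6 and 1, of 11 kidney and coelomic genes 6 and 0, and of 13 neural genes 2 and 3. Of 26 blood progenitor genes 7 were higher and 2 lower, of 14 megakaryocyte genes 4 and 0, of 15 macrophage genes 1 and 0, and of 20 cell division genes 1 and 4. The background is the 18.2% higher and 8.60% lower given above. For the first 7 lists, under alternatives applied after seeing the data, the higher counts ran from 1 to 4, 2 to 7, 5 to 10, 9 to 13, 6 to 14, 11 to 15 and 7 to 13 in the same order, and the lower counts from 0 to 3 in haem synthesis and from 0 to 2 in the others.

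Promoters were read because GATA factors, which act in blood, yolk sac and heart mesoderm, bind a short motif. It was searched only as AGATAA or TGATAA, and 4 members that hold these letters are shown. RefSeq sequences of GRCm38.p6, from 250 bases before to 50 after a start site, were matched for 22 of 33 members, in 28 windows. AGATAA or TGATAA, on either strand, was found in 8 of these 28 windows (28.6%) and in 18.6% of all 32851 windows. CCACACC or CCCCACC, of the kind bound by Klf1, was in 28.6% of member windows and 21.9% of all. The E-box CAGATG was in 17.9% and 17.2%, and TGAGTCA, of the kind bound by Nfe2, was in 3.57% and 5.20%. These are counts of letters, not of bound sites. The windows below belong to a red cell member (Alas2, chrX:150547167-150547466, plus strand), a Nodal co-receptor (Cfc1, chr1:34535398-34535697, plus strand), a member with a large change by day 16 (Rgs5, chr1:169655251-169655550, plus strand) and 1 of the 2 members called lower at day 16 (Dpp4, chr2:62412182-62412481, minus strand). Each is written 5′ to 3′ in the direction of its gene with the GATA letters, or their reverse complement, in capitals.
Alas2: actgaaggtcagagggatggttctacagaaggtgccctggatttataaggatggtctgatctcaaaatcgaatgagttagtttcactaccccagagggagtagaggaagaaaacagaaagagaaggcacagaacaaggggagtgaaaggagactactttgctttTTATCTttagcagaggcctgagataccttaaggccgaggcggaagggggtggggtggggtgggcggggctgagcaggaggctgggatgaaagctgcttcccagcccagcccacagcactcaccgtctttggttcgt
Cfc1: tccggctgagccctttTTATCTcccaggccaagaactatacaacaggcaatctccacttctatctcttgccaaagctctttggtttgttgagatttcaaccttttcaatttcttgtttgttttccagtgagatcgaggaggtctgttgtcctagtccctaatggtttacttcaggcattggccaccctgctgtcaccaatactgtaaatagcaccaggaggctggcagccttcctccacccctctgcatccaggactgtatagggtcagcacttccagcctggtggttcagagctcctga
Rgs5: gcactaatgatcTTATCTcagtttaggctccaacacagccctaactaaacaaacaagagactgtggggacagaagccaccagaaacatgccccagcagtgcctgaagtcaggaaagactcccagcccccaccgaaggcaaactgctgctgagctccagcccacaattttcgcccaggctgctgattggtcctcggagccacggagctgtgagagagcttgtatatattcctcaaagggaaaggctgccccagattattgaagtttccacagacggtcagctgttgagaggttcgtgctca
Dpp4: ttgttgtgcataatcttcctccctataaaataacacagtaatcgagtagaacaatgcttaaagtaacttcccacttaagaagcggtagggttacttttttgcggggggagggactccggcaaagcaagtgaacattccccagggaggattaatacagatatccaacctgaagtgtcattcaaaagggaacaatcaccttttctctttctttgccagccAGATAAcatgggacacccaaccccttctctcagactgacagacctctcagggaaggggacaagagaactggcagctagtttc
Counted from the start site, the match begins at -86 in Alas2, -234 in Cfc1, -238 in Rgs5 and -32 in Dpp4. The Alas2 window follows the RefSeq start, which is no GENCODE M21 transcript start, while the other 3 are. Of the 7 members with these letters, Cfc1, Rgs5, Nebl, Slc18a2 and Gm45889 were higher at day 16 than day 0 in the 1343KO line. Dpp4 was lower and Alas2 did not pass. Of all 33 members 69.7% were higher, and a link of these letters to the rise was not tested.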

How the data were processed

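Per the labels, poly(A) RNA was sequenced from 12 libraries. The authors deposited 1 FPKM value per gene and library, computed with Cufflinks 2.1.1 on GRCm38 (mm10) as far as the submitters' processing notes name tools and builds. The aligner and the annotation were not given in the sources used here, nor was the strand setting. Starts of genes, which count from 0 in the table, were raised by 1, and 98.7% of genes then had GENCODE M21 coordinates. Among 6620 genes whose median reached 10 FPKM, 17 were listed at 0 in some library, so a 0 can be a failed estimate. Depth came from transcripts of at least 1500 nt, whose smallest values are multiples of a step (83.6% to 87.9% within 5% of a whole number, for 1 to 3 fragments of an assumed 200 nt). Because this gives depth only roughly, counts were not modelled.

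The filter kept 16289 genes that reached 1 FPKM in 2 or more libraries. All 33 members were kept by construction, since both their WT day 8 values were at least 5 FPKM. In 3 members no 1343KO library reached 1 FPKM, so the absence of a call within that line says little. With a filter of 1 FPKM in 2 1343KO libraries 30 members were tested. Of these, 16 were higher at day 8 and 23 at day 16 against day 0. The log2(FPKM + 1) values of the 16289 genes entered 1 linear model with a mean per group (limma 3.58.1, R 4.3.3, variance trend, 6 residual degrees of freedom). P-values are two-sided. An exact permutation test of 2 against 2 libraries cannot go below p = 0.333, so calls rest on the spread shared across genes and groups. Tests of members are given only within the 1343KO line, since WT values chose them. WT libraries still enter the shared spread. The rule uses the lower WT day 8 value and the highest other WT value, which favours members with close WT replicates. The spread of the members is therefore not independent of the choice, and the size of this effect was not tested. A fit to the 6 1343KO libraries alone is an alternative. Of the 30 members tested there, 12 were higher at day 8 and 19 at day 16 against day 0. From day 8 to day 16 the higher count was 0. For the filter on 1343KO libraries and for this fit, the share of all tested genes called is not given here. The member counts of these 2 alternatives therefore have no background. Members, lists and the rule for named genes (the most abundant, those with the largest gap, list members, those near a threshold and those called) were chosen with earlier results of these data known. Roles were assigned, and Nodal, Tdgf1, Hba-x and Hbb-y tested under the alternatives, after values were seen. Counts, medians and fits include all 33 members, while 1 member is not reported here by itself. The fit was also run on simulated data, with an outcome not given here. Its changed genes were drawn from those above about 1 FPKM at 1343KO day 0. It therefore does not cover the members under that level. Tables and figures used Python 3.11.15 with pandas 2.3.3, numpy 2.4.6, and, for drawing, matplotlib 3.10.9.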

Additional observations from a re-analysis of the deposited data

Results flagged for a closer look

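Counts in which every library of the 1343KO line moved against the direction that the choice of members fixes in WT were taken for a closer look. In 22 members both 1343KO day 16 libraries were above both 1343KO day 8 libraries (24.8% of all tested genes), while in WT both day 16 libraries were below both day 8 libraries. By limma 3 members passed for these 2 days in the 1343KO line, and 0 of those calls held under every alternative. The 22 include Alas2, listed at 0 and 0 FPKM on day 8 and at 0.460 and 0.191 on day 16. In 3 members, Dpp4, 2210011C24Rik and Alas2, both 1343KO day 8 libraries were below both 1343KO day 0 libraries (24.2% of all tested genes), while WT was higher at day 8. Neither difference between the lines was tested, since the WT values set the choice of members.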

How the results depend on the processing

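The number of members was 33. It became 83 with a floor of 1 FPKM, 88 at 2 times, 12 at 5 times and 60 with TPM scaling, which by construction multiplies the values by 1.93 to 2.25 under an unchanged floor. It was 34 to 59 when each WT library was left out of the choice. By construction this can only add genes, and all 33 members were kept each time. With a floor of 10 FPKM the number of members was 23 and with median-of-ratios scaling 32. Of the 12 members at 5 times, 4 were higher at day 8 and 7 were higher and 0 lower at day 16 against day 0. The count of members higher at day 16 against day 0 was 23, and 19 to 23 with each library left out. Under the other settings of the fit it was 16 to 23. The 16 came with a mean of at least 5 FPKM (21 members tested), and the 6 1343KO libraries alone gave 19 (30 tested). The lower count for day 16 against day 0 was 2, and 1 with no filter, 1 with a replicate block and 1 on the 6 1343KO libraries alone. It was 1 to 2 when each library was left out. For day 8 against day 0, leaving out each library gave 8 to 16 higher and 0 to 1 lower. For day 16 against day 8 the 3 higher calls became 1 with a pseudocount of 0.1 and 0 on the 6 1343KO libraries alone, with 0 to 3 when each library was left out. The 0 lower calls there became 1 with a pseudocount of 0.1, with a filter of 1 FPKM in 2 1343KO libraries (30 members tested), with a mean of at least 5 FPKM (21 tested) and with median-of-ratios scaling, and stayed at 0 when each library was left out. No called member changed direction under any alternative. Median-of-ratios scaling moved the median change of all genes at day 16 against day 0 to 0.00 (0.11 before). Libraries sharing a replicate number did not deviate together (correlations of -0.04 to 0.04 over 15 pairs of groups), so the replicate block stands here only as a setting. The cause of each change was not tested, apart from what is so by construction. With 2 libraries a group, changes of members under about 1 FPKM are poorly resolved.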
